A study of Mus musculus with 7 samples.

Results

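Transcript levels of 36 genes of sterol and fatty acid synthesis, with their regulators and the genes of sterol transfer and efflux, were followed in cells sorted from mouse mammary fat pad tumors. The tumors were grown from 4T1, a line derived from a triple-negative breast carcinoma of the mouse. The genes were taken by name from the deposited expression table. All 36 had 1 row each, annotated as protein-coding, out of 57126 rows. They comprised 7 genes of the mevalonate part of the pathway, 11 of the sterol part, 6 regulators, 3 genes of transfer and efflux and 9 of fatty acid synthesis.

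Cells make cholesterol from acetyl-CoA. The mevalonate part of the pathway builds farnesyl diphosphate, which squalene synthase diverts to squalene, and the sterol part closes squalene into lanosterol and trims that to cholesterol. The transcription factors SREBP-2 and SREBP-1 drive most of these genes. SCAP carries the SREBPs from the endoplasmic reticulum to the Golgi for activation when sterols are scarce, and INSIG proteins hold SCAP back when sterols are plentiful. Liver X receptors respond to oxysterols and switch on efflux pumps such as ABCA1. Proliferating tumor cells use both pathways to make membranes.

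The host mice were BALB/c, and every library came from mCherry-expressing 4T1 cells, which are syngeneic with that strain. The fat pads of the control group were given phosphate-buffered saline (PBS) in a volume of 100 µL (3 libraries), and those of the treated group 0.3 units of Botox in the same volume (4 libraries). Botox is a botulinum toxin preparation that blocks transmitter release from nerve endings, used here for chemical denervation. Tumor cells were injected 7 days later, and mCherry-positive cells were sorted after tumor onset. Each library is labelled with a mouse of its own. Groups were taken from the sample titles, since the treatment field reads "Not treated" for all 7 libraries. No source used here gives the age of the mice, the number of sorted cells or the time from injection to sorting. In bulk RNA of sorted cells, fewer cells of a type and less RNA per cell cannot be told apart.

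Values are TPM, read numbers divided by gene length and brought to the same total in each library. Here TPM was computed with the genomic span of a gene, introns included, so it serves to compare 1 gene between libraries and not 2 genes with each other. The 7SL RNA genes Rn7s1 and Rn7s2 alone held 47.9% to 52.0% of all TPM in the PBS libraries and 53.0% to 70.4% in the Botox libraries, and what they take is missing from all other genes. The median log2 fold change of the 11253 genes tested was -0.46 on the deposited scale and -0.04 after each library was divided by its size factor, the median ratio of its genes to their geometric mean over libraries, over genes above 0 in every library. Size factors were 1.20 to 1.40 in the PBS libraries and 0.446 to 1.14 in the Botox libraries. Both scales are given below, and "scaled TPM" means TPM divided by the size factor. Where values are set against each other, those of PBS 1 to 3 come first and those of Botox 1 to 4 second. Estimated depth was 8560000 to 13590000 reads. Botox 2 and Botox 4 stood apart, with 2.98% and 2.41% of their detected genes at 1 to 4 estimated reads against 13.9% to 23.5% in the other 5 libraries, and the results are also given without them.

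Of the 36 genes 31 could be tested, and none of those passed. After scaling, Hmgcs1, which makes HMG-CoA at the entry to the mevalonate pathway, had the lowest log2 fold change of TPM + 1 of the 31. It lay at 54.0% to 70.5% of the PBS mean in each of the 4 Botox libraries. Besides Hmgcs1, the genes with every Botox library below every PBS library were Idi1, Hsd17b7, Stard4 and Elovl6. These 5 were 16.1% of the 31, against 3.77% of all tested genes. By the ratio of scaled means Acsl3 was the lower gene, at 61.2% of the PBS mean against 63.4% for Hmgcs1. The regulators Srebf1 and Srebf2 had the same scaled mean in both groups within their spread. Scap was the 1 gene of the 31 (3.23%, against 4% of all tested genes) with every Botox library above every PBS library. Its groups overlapped on the deposited scale.

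Over the list, 0 of the 31 tested genes passed a Benjamini-Hochberg adjusted p of 0.05 in limma on either scale, against 0% of all tested genes on the deposited scale and 0.00889% (1 gene, no member, in the higher direction) with size factors. On the deposited scale all 31 had a negative log2 fold change, as did 93.8% of all tested genes, and the median was -0.60 against -0.46. At an unadjusted p under 0.05, 6 of the 31 (19.4%) were lower, against 7.37% of all tested genes. All Botox values were below all PBS values in 15 of the 31 (48.4%), against 22.4% of all tested genes. With size factors the median was -0.14 against -0.04, 24 of 31 were negative (77.4%, against 56.6%), and 2 (6.45%, against 2.04%) were lower at an unadjusted p under 0.05. Groups did not overlap downward in 5 of 31 genes (16.1%, against 3.77%) and upward in 1 (3.23%, against 4%). These counts leave out the 5 genes below the filter of 1 TPM in 3 libraries, namely Mvk, Tm7sf2, Nsdhl, Abcg1 and Acaca. Only 12 members reached 1 TPM in every library, 17 did so in all PBS libraries but only some Botox libraries, and Fads2 did so in PBS libraries alone, so the counts are a description. In 10 of the 36 genes another annotated gene overlaps on the other strand, Hmgcs1, Idi1, Scap and Elovl6 among them, and in 4 (Fdft1, Cyp51, Srebf1 and Acaca) it is protein-coding. No source used here gives the strand setting of the counting. Over all 36 genes, the scaled mean was lower after Botox in 26 and higher in 10.

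Without Botox 2 and Botox 4, again 0 of the 31 tested genes passed the adjusted threshold in limma, as did 0 of all tested genes. On the deposited scale 25 were negative (80.6%, against 72.2% of all), 8 (25.8%, against 9.4%) were lower and 0 (against 1.26%) higher at an unadjusted p under 0.05. The groups of 17 (54.8%, against 28.4%) did not overlap downward and those of 0 (against 4.21%) upward. With size factors 22 were negative (71.0%, against 48.5%), 4 (12.9%, against 4.25%) were lower and 0 (against 4.93%) higher at that p. Groups did not overlap downward in 10 (32.3%, against 13.4%; Acat2, Hmgcs1, Idi1, Hsd17b7, Ebp, Stard4, Abca1, Acly, Elovl6 and Fads1) and upward in 4 (12.9%, against 15.4%; Srebf1, Scap, Insig2 and Fasn), and the median was -0.15 against 0.01 over all tested genes.

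**Figure D1:**
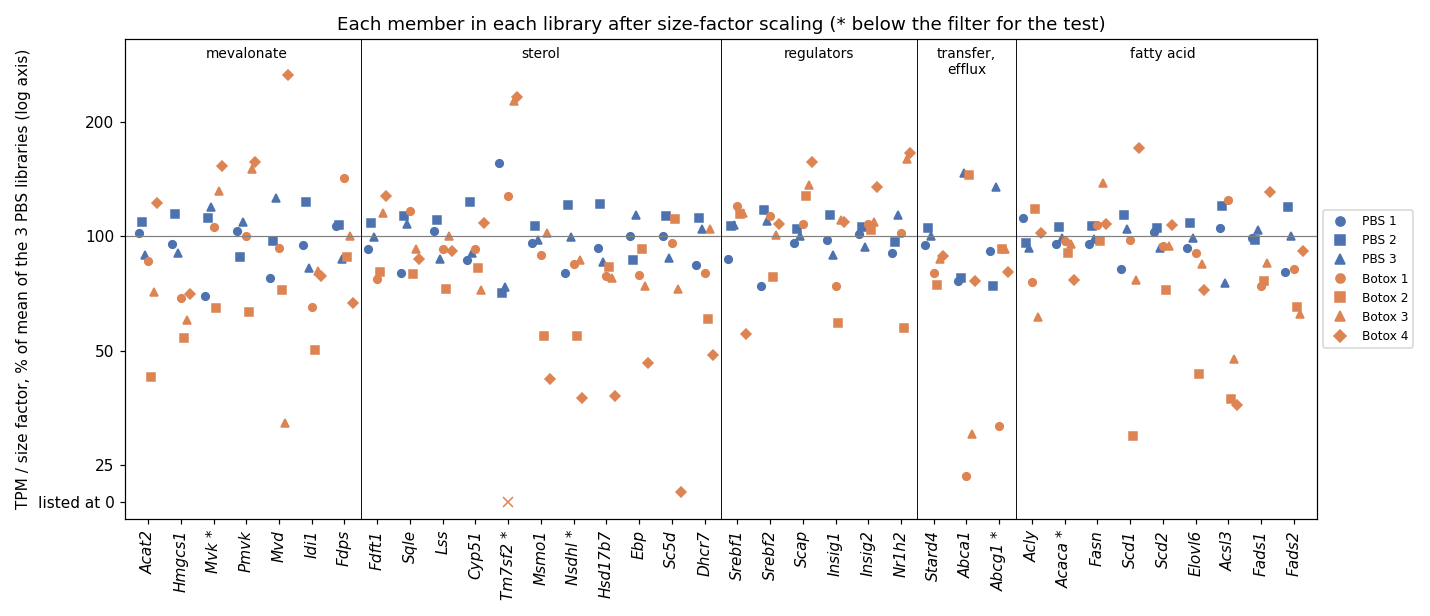
Scaled TPM of each of the 36 genes in each library, as a percent of the mean of the 3 PBS libraries (log axis), with the genes in pathway order on the horizontal axis; color gives the group, shape the replicate number, and a star a gene below the filter. The 4 Botox points of Hmgcs1 lie between 54.0% and 70.5%, those of Scap between 108% and 156%, and the lowest values of Msmo1, Nsdhl, Hsd17b7, Ebp, Sc5d and Dhcr7 are those of Botox 4.

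In the mevalonate part, Hmgcs1 and Idi1 were lower after Botox in every library, and the other 5 genes overlapped between groups after scaling. Hmgcs1 (ENSMUSG00000093930, chromosome 13, 120151915 to 120169797 in mm39, whole gene) was at 8.48, 8.75 and 7.33 TPM in PBS 1 to 3 against 4.61, 3.08, 4.37 and 2.01 TPM in Botox 1 to 4, from 369 to 1218 estimated reads per library. In scaled TPM these were 6.08, 7.32 and 5.78 against 4.39, 3.46, 3.85 and 4.51, with no overlap and with Botox 4 the highest of the Botox libraries. The log2 fold change was -1.06 ± 0.33 (SE) on the deposited scale (limma adjusted p = 0.42) and -0.55 ± 0.14 (SE) with size factors (adjusted p = 0.93). Without Botox 2 and Botox 4 the scaled value was -0.55 as well. Among all tested genes 7.10% had a lower scaled fold change.

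Idi1, the isomerase that interconverts the isoprene building blocks, was at 19.0, 21.1 and 15.0 TPM with PBS against 9.77, 6.39, 13.2 and 5.02 TPM in Botox 1 to 4. Scaled values ran from 11.8 to 17.6 in PBS libraries and from 7.18 to 11.6 in Botox libraries, so the groups came close to touching between PBS 3 and Botox 3. The scaled log2 fold change was -0.50 ± 0.21 (SE; limma adjusted p = 0.93) and -0.43 without Botox 2 and Botox 4. Idi1 (ENSMUSG00000058258) lies on chromosome 13 as well, at 8935537 to 8942488 in mm39.

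Between these 2 genes, Mvk, mevalonate kinase, held only 17 to 44 estimated reads per library and was not tested, at 0.278 ± 0.0598 TPM in PBS libraries (SD, n = 3) against 0.211 ± 0.0920 TPM with Botox (SD, n = 4). Pmvk, the next kinase, had a scaled mean of 1.01 ± 0.108 in PBS libraries (SD, n = 3) against 1.19 ± 0.448 with Botox (SD, n = 4). Mvd, the decarboxylase, had scaled values of 0.788 to 1.28 in the PBS libraries and of 0.945, 0.731, 0.328 and 2.69 in Botox 1 to 4, so that its lowest and highest values were both Botox libraries. Acat2, which joins acetyl-CoA units ahead of Hmgcs1, was at 1.97, 1.81 and 1.57 TPM against 1.25, 0.527, 1.12 and 0.753 TPM, and its scaled groups overlapped through Botox 4. Fdps, which makes farnesyl diphosphate at the branch point, had a scaled mean of 1.36 ± 0.157 in PBS libraries (SD, n = 3) against 1.35 ± 0.432 with Botox (SD, n = 4). Hmgcs1 and Idi1 thus lay low while the scaled fold changes of Pmvk, Mvd and Fdps were 0.10, 0.01 and -0.02. That of Mvd was -0.36 without Botox 2 and Botox 4.

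The promoters of the 3 sterol pathway genes whose scaled groups did not overlap are printed for the letters of 2 elements that SREBP-driven promoters are known for, the sterol regulatory element bound by SREBP and the CCAAT box bound by NF-Y. Each is the 250 bases before the transcription start in RefSeq's GRCm38.p6, 5′ to 3′ on the strand of the gene, and capitals mark TCACNCCAC or CCAAT on either strand. The windows are chr13:119690101-119690350 (plus strand) for Hmgcs1, chr13:8885356-8885605 (plus strand) for Idi1 and chr1:169969206-169969455 (minus strand) for Hsd17b7.
Hmgcs1: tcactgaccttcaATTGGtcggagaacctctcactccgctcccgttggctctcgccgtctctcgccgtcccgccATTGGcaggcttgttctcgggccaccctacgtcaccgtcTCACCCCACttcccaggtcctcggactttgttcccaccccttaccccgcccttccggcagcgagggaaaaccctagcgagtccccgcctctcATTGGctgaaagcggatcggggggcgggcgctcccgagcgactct
Idi1: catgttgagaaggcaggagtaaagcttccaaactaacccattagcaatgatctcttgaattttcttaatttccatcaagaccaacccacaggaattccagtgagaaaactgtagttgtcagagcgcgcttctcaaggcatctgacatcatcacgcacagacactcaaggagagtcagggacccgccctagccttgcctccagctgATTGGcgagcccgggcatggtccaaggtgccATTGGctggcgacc
Hsd17b7: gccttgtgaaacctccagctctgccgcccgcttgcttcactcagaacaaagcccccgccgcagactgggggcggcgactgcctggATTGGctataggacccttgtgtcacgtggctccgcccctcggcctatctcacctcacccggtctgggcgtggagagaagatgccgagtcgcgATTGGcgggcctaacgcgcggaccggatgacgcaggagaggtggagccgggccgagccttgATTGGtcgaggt
The letters TCACNCCAC were found in the Hmgcs1 window, as TCACCCCAC at positions -137 to -129 from the start, and in no other of the 28 members with a window. Of all 27025 genes with a window 1.22% hold them, and of the 6034 tested ones 1.18%. CCAAT was found in 20 of the 28 members (71.4%), against 37.5% of all genes and 40.3% of the tested ones, and the GC box GGGCGG in 23 (82.1%), against 35.4% and 65.4%. The E-box TCACGTGA was in no member window and in 0.907% of all. These are matches of exact letters in a short window, and variants of an element that differ in a fixed letter were not counted. Both strands were searched and each motif was counted separately, so that matches of different motifs may overlap. A gene with several RefSeq starts was counted once if any of its windows held the letters.

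In the sterol part, the scaled log2 fold changes of Fdft1, Sqle, Lss and Cyp51 lay between -0.14 and -0.01, and those of Msmo1, Hsd17b7, Ebp, Sc5d and Dhcr7 between -0.41 and -0.28. Hsd17b7 and Ebp were below the scaled PBS mean in each of the 4 Botox libraries, at 77.4% to 83.0% and 73.8% to 92.5% of it in Botox 1 to 3. Fdft1, squalene synthase, was at 1.98, 1.99 and 1.93 TPM against 1.24, 1.10, 2.01 and 0.873 TPM, and had the same scaled mean of 1.54 in both groups (SD 0.121, n = 3, and 0.386, n = 4). Sqle, squalene epoxidase and a rate-limiting enzyme of sterol synthesis, was at 11.9, 14.4 and 14.6 TPM against 13.1, 7.56, 11.2 and 4.16 TPM. Its scaled values ran from 8.54 to 12.1 with PBS and from 8.49 to 12.4 with Botox. Lss, which closes the ring to lanosterol, and Cyp51, which removes the first methyl group from it, had scaled log2 fold changes of -0.10 ± 0.13 and -0.14 ± 0.17 (SE), and of -0.04 and -0.24 without Botox 2 and Botox 4. Sqle, Lss and Cyp51 each overlapped between the groups. On the deposited scale the groups of Cyp51 did not overlap, with 2.07 to 4.17 TPM against 4.91 to 6.34 TPM.

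The genes of demethylation and of the last conversions came next. Msmo1, the C4-methylsterol oxidase, was at 3.86, 3.66 and 3.57 TPM with PBS against 2.71, 1.40, 3.33 and 0.541 TPM in Botox 1 to 4. Hsd17b7, the ketosteroid reductase of C4 demethylation (chromosome 1, 169777104 to 169796811 in mm39), was at 4.30, 4.79 and 3.58 TPM against 2.71, 2.44, 2.91 and 0.558 TPM. Its scaled groups did not overlap (2.83 to 4.00 against 1.25 to 2.74), and its scaled log2 fold change was -0.41 ± 0.22 (SE; limma adjusted p = 0.93). Ebp, the sterol isomerase, was at 3.10, 3.08 and 3.13 TPM in Botox 1 to 3, below the 3.86 to 5.38 TPM of the PBS libraries, and at 0.773 TPM in Botox 4. Sc5d, the sterol C5-desaturase, had scaled values of 2.84 to 3.66 in the PBS libraries and of 3.12, 3.60, 2.35 and 0.689 in Botox 1 to 4. Dhcr7, which makes cholesterol from 7-dehydrocholesterol, had a scaled mean of 1.74 ± 0.251 (SD, n = 3) and 1.28 ± 0.426 (SD, n = 4). Among the genes below the filter, Nsdhl, the decarboxylating dehydrogenase of C4 demethylation, was at 0.371 ± 0.0477 and 0.184 ± 0.110 TPM, and Tm7sf2, a C14 sterol reductase, was listed at 0 in Botox 2 and lay between 0.405 and 1.23 TPM in the other libraries.

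Botox 4 held the lowest value of Msmo1, Nsdhl, Hsd17b7, Ebp, Sc5d and Dhcr7, at 21.2% to 48.6% of the scaled PBS mean, from 20 to 113 estimated reads per gene. In the same library Hmgcs1 was at 70.5%, Sqle at 87.1%, Cyp51 at 108% and Mvd at 264% of it. Of the 31 tested members 6 (19.4%) were under 50% of the PBS mean in Botox 4, against 23.0% of all tested genes there. They were Msmo1, Hsd17b7, Ebp, Sc5d, Dhcr7 and, from fatty acid synthesis, Acsl3, while Nsdhl was not tested. In the same library 5 members were over 150%, where 19.1% of all tested genes lay. The corresponding shares under 50% were 3.23% of members against 5.19% of genes in Botox 1, 12.9% against 13.7% in Botox 2 and 9.68% against 9.86% in Botox 3. In none of the 4 Botox libraries was the share of members under 50% above the share of all tested genes. Without Botox 2 and Botox 4 the scaled log2 fold changes of Msmo1, Hsd17b7, Ebp, Sc5d and Dhcr7 were -0.06, -0.28, -0.32, -0.21 and -0.09, against -0.38, -0.41, -0.36, -0.40 and -0.28 with all libraries. Botox 2, which shares the low number of genes at 1 to 4 reads with Botox 4, had Sc5d at 111%, Ebp at 92.5% and Hsd17b7 at 83.0% of the PBS mean, and Msmo1, Nsdhl and Dhcr7 at 54.6% to 60.6%.

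Among the regulators the median log2 fold change was 0.07 above that of all tested genes on the deposited scale and 0.10 above it with size factors. All 6 passed the filter, and 5 of them lay above the median of all tested genes on both scales, Insig1 being the exception. Srebf2, which encodes SREBP-2, had a scaled mean of 2.30 ± 0.527 in PBS libraries (SD, n = 3) against 2.29 ± 0.350 with Botox (SD, n = 4). Srebf1, which encodes SREBP-1, was at 2.51, 2.63 and 2.81 TPM with PBS against 2.61, 2.11, 2.70 and 0.509 TPM in Botox 1 to 4. Its scaled mean was 2.07 ± 0.235 (SD, n = 3) and 2.10 ± 0.637 (SD, n = 4). Scap, the SREBP escort, was at 1.68, 1.58 and 1.59 TPM against 1.43, 1.43, 1.95 and 0.879 TPM, so its groups overlapped on the deposited scale. In scaled TPM it was at 1.21, 1.32 and 1.26 against 1.36, 1.61, 1.72 and 1.97, with no overlap, and its log2 fold change was 0.23 ± 0.13 (SE; limma adjusted p = 0.93), against -0.13 ± 0.26 (SE) before scaling. The direction for Scap therefore depends on the scale.

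Insig1, itself a target of SREBP and a brake on it, ran from 23.5 to 28.3 TPM with PBS and from 10.1 to 26.1 TPM with Botox. Scaled values of 15.4 and 12.3 in Botox 1 and Botox 2 lay below the 18.6 to 23.7 of the PBS libraries, and those of 23.0 and 22.7 in Botox 3 and Botox 4 lay among them. Insig2, the related gene that does not depend on SREBP in the same way, had scaled means of 1.96 ± 0.119 (SD, n = 3) and 2.23 ± 0.274 (SD, n = 4). The ratio of Insig1 to Insig2 within a library, which does not depend on its scale, was 10.1 to 11.5 in the PBS libraries and 7.32, 6.07, 10.7 and 8.60 in Botox 1 to 4. Nr1h2, which encodes the liver X receptor beta, spread widely after Botox, with scaled values of 8.56, 4.81, 13.4 and 13.9 against 7.61 to 9.55 in the PBS libraries.

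Ratios to Srebf2 within a library were used to set the target genes beside their regulator without any scaling between libraries. They were chosen after the values had been seen and are given without a test. Hmgcs1 to Srebf2 was 3.58, 2.73 and 2.31 in PBS 1 to 3 and 1.69, 1.92, 1.66 and 1.83 in Botox 1 to 4, with no overlap. Idi1 to Srebf2 was 4.71 to 8.02 against 3.58 to 5.02, which overlapped. Sqle to Srebf2 was 4.71 ± 0.290 (SD, n = 3) against 4.39 ± 0.464 (SD, n = 4), and Cyp51 to Srebf2 was 1.91 ± 0.333 against 1.68 ± 0.298, each a difference within the spread of the libraries. Hsd17b7 to Srebf2 ran from 1.13 to 1.82 and from 0.508 to 1.53, so the lack of overlap of Hsd17b7 did not hold against this regulator.

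**Figure D2:**
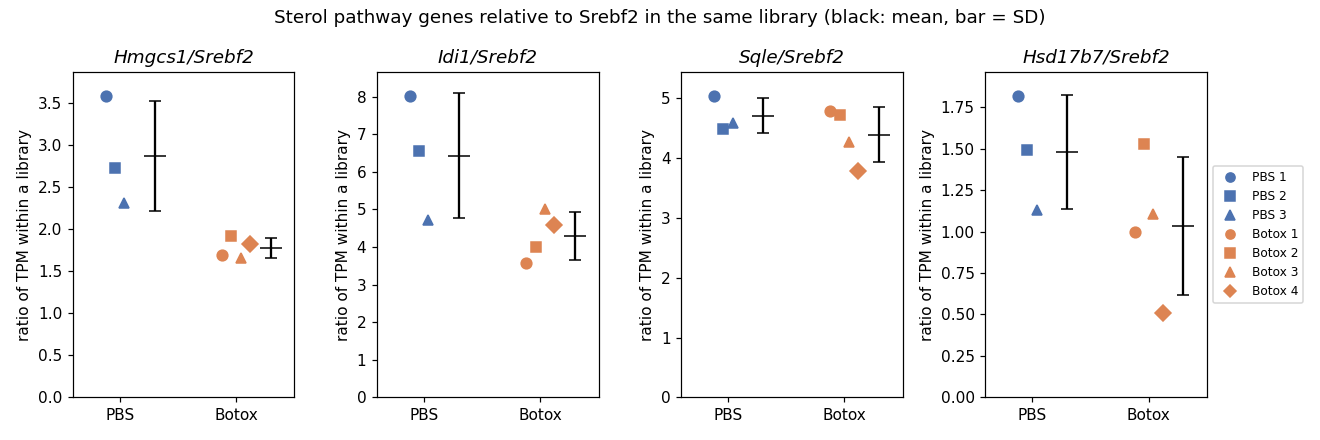
Ratio of the TPM of Hmgcs1, Idi1, Sqle and Hsd17b7 to the TPM of Srebf2 in the same library (vertical axes from 0), for 3 PBS and 4 Botox libraries, with the mean and SD in black. For Hmgcs1 the 4 Botox libraries sit at 1.66 to 1.92, below the 2.31 to 3.58 of the PBS libraries, while for Sqle the groups overlap.

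Among the genes of transfer and efflux, Stard4, which encodes a carrier of sterol between membranes, was lower in every Botox library and Abca1 was divided between the libraries. Stard4 was at 9.15, 8.69 and 8.79 TPM with PBS against 5.82, 4.58, 6.83 and 2.74 TPM in Botox 1 to 4, or 6.92 ± 0.352 scaled TPM (SD, n = 3) against 5.71 ± 0.455 (SD, n = 4). The scaled groups did not overlap, and the log2 fold change was -0.24 ± 0.12 (SE; limma adjusted p = 0.93) with all libraries and the same without Botox 2 and Botox 4. Abca1, the pump that loads cholesterol onto apolipoproteins, was at 1.74, 1.51 and 3.03 TPM with PBS. In Botox 1 to 4 it was at 0.401, 2.11, 0.559 and 0.556 TPM, so that Botox 2 lay among the PBS libraries and the other Botox libraries below them. After scaling Botox 4 joined the PBS range at 1.25, next to 1.24 and 1.27 in PBS 1 and PBS 2. Abcg1, the partner pump that loads cholesterol onto lipoprotein particles, was below the filter, at 0.737 ± 0.236 (SD, n = 3) against 0.367 ± 0.203 TPM (SD, n = 4).

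Markers of macrophages, which express Abca1 when loaded with lipid, varied between the libraries as well. The sum of 10 macrophage markers, led by Lyz2 and Apoe, was 702, 584 and 781 scaled TPM in PBS 1 to 3 and 171, 1031, 565 and 909 in Botox 1 to 4. None of the 10 was at 0 in every library, and 9 were tested. Botox 1, with the lowest sum, also had the lowest scaled Abca1 (0.382) and Abcg1 (0.181), and Botox 2, with the highest sum, had 2.37 for Abca1, close to the 2.39 of PBS 3. Botox 3 had 0.493 for Abca1 at a marker sum near that of PBS 2, where it was 1.27. The part of macrophage RNA in the efflux genes was not tested. The log2 fold change of Abca1 was -0.38 ± 0.35 (SE) with size factors (limma adjusted p = 0.93), and -0.94 without Botox 2 and Botox 4, where the 2 Botox libraries with the lowest scaled Abca1 remain.

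**Figure D3:**
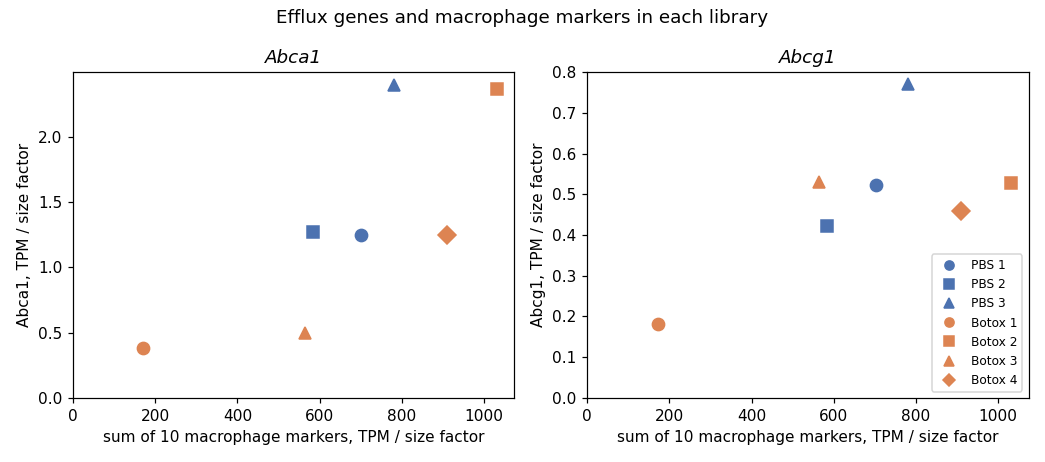
Scaled TPM of Abca1 (left) and Abcg1 (right) against the summed scaled TPM of 10 macrophage markers, 1 point per library, with color for the group and shape for the replicate. Botox 1 is lowest on both axes of both panels (sum 171, Abca1 0.382, Abcg1 0.181), and Botox 3 lies below PBS 2 for Abca1 (0.493 against 1.27) at a similar sum.

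In fatty acid synthesis the first enzymes overlapped between groups after scaling, and Fasn was not lower. Acly, which makes acetyl-CoA from citrate, was at 3.04, 2.23 and 2.30 TPM against 1.55, 2.05, 1.36 and 0.887 TPM, and after scaling Botox 4 lay within the PBS range and Botox 2 above it. Botox 1 and Botox 3 lay below it, at 1.48 and 1.20 against 1.81 to 2.18, and the scaled log2 fold change was -0.12 with all libraries and -0.37 without Botox 2 and Botox 4. Acaca, acetyl-CoA carboxylase, had a span of 271980 bases and so fell below the filter in TPM, although it held 323 to 946 estimated reads per library. It was at 0.451, 0.429 and 0.425 TPM against 0.345, 0.272, 0.367 and 0.116 TPM, or 0.339 ± 0.0178 (SD, n = 3) against 0.304 ± 0.0313 scaled TPM (SD, n = 4). Fasn, fatty acid synthase, was at 23.4, 22.4 and 21.9 TPM against 19.7, 15.2, 27.6 and 8.43 TPM. Its scaled mean was 17.6 ± 1.03 in PBS libraries (SD, n = 3) against 19.8 ± 3.14 with Botox (SD, n = 4), and its log2 fold change turned from -0.44 ± 0.43 on the deposited scale to 0.15 ± 0.15 (SE) with size factors and 0.26 when Botox 2 and Botox 4 were left out as well.

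The enzymes that elongate and desaturate fatty acids differed from library to library. Elovl6, which extends palmitate, was at 1.92, 1.91 and 1.85 TPM with PBS against 1.40, 0.570, 1.41 and 0.474 TPM in Botox 1 to 4. Its scaled groups did not overlap (1.37 to 1.60 against 0.639 to 1.33), with Botox 1 (1.33) next to PBS 1 (1.37), and its log2 fold change was -0.27 ± 0.16 (SE; limma adjusted p = 0.93). It was -0.13 without Botox 2 and Botox 4. Scd2, the stearoyl-CoA desaturase with the most reads of the list (5087 to 10164), was at 113, 99.0 and 92.8 TPM against 78.1, 50.8, 84.1 and 37.5 TPM. The scaled means of Scd2 were 78.9 ± 4.99 (SD, n = 3) and 72.4 ± 11.3 (SD, n = 4). Its paralog Scd1 had scaled values of 2.29 to 3.18 in the PBS libraries and of 2.74, 0.834, 2.15 and 4.76 in Botox 1 to 4, and reads of these similar genes could be exchanged by the authors' counting.

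Acsl3, which activates fatty acids with CoA and is found on lipid droplets, was at 1.41, 1.38 and 0.921 TPM against 1.26, 0.319, 0.520 and 0.154 TPM. Botox 1 lay above all PBS libraries after scaling, at 1.20, and Botox 2 to 4 below them, at 0.345 to 0.458. The scaled log2 fold change of Acsl3 was -0.33 with all libraries and -0.15 without Botox 2 and Botox 4. The desaturases of polyunsaturated fatty acids, Fads1 and Fads2, lie side by side on chromosome 19. Fads1 was at 8.11 ± 0.672 TPM in PBS libraries (SD, n = 3) against 4.72 ± 1.03 TPM with Botox (SD, n = 4), and Fads2 at 1.30 ± 0.155 and 0.650 ± 0.196 TPM. Neither gene's groups overlapped on the deposited scale, and both overlapped after scaling, Fads1 through Botox 4 (8.21 against 6.16 to 6.53). Without Botox 2 and Botox 4 the groups of Fads1 did not overlap (4.65 and 5.34 against 6.16 to 6.53), and its scaled log2 fold change was -0.31, against -0.14 with all libraries. Across the 8 tested genes of fatty acid synthesis the median scaled log2 fold change was -0.16, against -0.20 over the 15 tested genes of the mevalonate and sterol parts and 0.06 over the 6 regulators.

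Among 66 other genes of sterol and lipid metabolism, 39 were tested and 0 passed the adjusted threshold in limma, with 2 (5.13%, against 7.37% of all tested genes) lower at an unadjusted p under 0.05 on the deposited scale. On that scale 39 of 39 were negative (against 93.8%) with a median of -0.49. With size factors 25 were negative (64.1%, against 56.6%) and 14 positive, with a median of -0.07. The member list's scaled median of -0.14 thus lay below and the all-gene median of -0.04 above that of these other genes. The gene with the smallest p was Acsl4, which activates arachidonate, at 6.22 ± 1.15 TPM in PBS libraries (SD, n = 3) against 2.94 ± 1.29 TPM with Botox (SD, n = 4), with a scaled log2 fold change of -0.47. Hacd3 of fatty acid elongation, Pcyt1a of phosphatidylcholine synthesis, the sterol-regulated gene Tmem97 and Mbtps2, the protease that frees SREBP, had scaled log2 fold changes of -0.19, -0.21, -0.22 and -0.16. That of Tmem97 was -0.03 without Botox 2 and Botox 4, and those of Acsl4, Hacd3, Pcyt1a and Mbtps2 were -0.54, -0.16, -0.25 and -0.15. Each of these 5 genes overlapped between groups after scaling with all libraries.

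For KEGG gene sets, the authors' deposited table gives a ratio of B to C, read here as Botox to control, that was below 1 for 227 of 227 sets, with a median of 0.683. Cholesterol metabolism (19 genes) had the 8th lowest ratio in the authors' deposited table, at 0.570. In the authors' deposited table steroid biosynthesis (14 genes) had a ratio of 0.576, the 9th lowest, and terpenoid backbone biosynthesis, the mevalonate part (14 genes), a ratio of 0.601, the 14th lowest. Fatty acid elongation (8 genes) and biosynthesis of unsaturated fatty acids (11 genes) had 0.607 and 0.618 in the authors' deposited table, while fatty acid biosynthesis (2 genes) had 0.718, above the median. The false discovery rates of the last 5 sets, in that order, were 1.12e-08, 6.69e-09, 0.00128, 0.000134 and 0.0341 in the authors' deposited table. That table's false discovery rate was under 0.05 for 220 of its sets, and no source used here says how it treats the scale of the libraries.

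Markers of fat, the tissue in which these tumors grew, were low. The sum of 10 adipocyte markers was 1.66 to 1.81 scaled TPM in the PBS libraries and 1.64 to 2.64 in the Botox libraries, none of the 10 reached the filter, and the highest were Plin4 and Lipe. Plin4, a lipid droplet gene, was at 0.666, 0.711 and 0.524 scaled TPM with PBS and at 1.36, 1.29, 0.875 and 1.52 in Botox 1 to 4, with no overlap, from 42 to 93 estimated reads. On the deposited scale its groups overlapped (0.663 to 0.929 against 0.676 to 1.43 TPM). Of all tested genes, which do not include Plin4, 4% had every scaled Botox value above every PBS value. Lipe was at 0.773 to 0.859 against 0.348 to 1.13 scaled TPM, which overlapped. Of the other adipocyte markers, Plin1 had a higher scaled mean after Botox. Adipoq, Lep, Cidec, Cfd, Retn, Fabp4 and Pparg had lower ones, from at most 13 estimated reads in any library. The 6 genes listed as markers of the tumor cells, led by Vim and Krt18, summed to 564 to 619 scaled TPM after PBS and to 440 to 657 after Botox. Vim alone was at 384 to 420 and 295 to 458 scaled TPM, and which cells its RNA came from was not tested. Summed markers of neutrophils were at 8.18 to 14.9 and 5.86 to 18.5 scaled TPM, led by Mmp9 and S100a8, those of fibroblasts at 3.72 to 6.32 and 2.64 to 8.60, led by Col1a1 and Pdgfra, and those of red cells at 4.25 to 14.9 and 3.94 to 33.1, led by Hba-a2 and Hba-a1. T or NK cell, B cell, endothelial and nerve markers summed to at most 2.24 scaled TPM in any library. 1 marker of T or NK cells and 1 of red cells were listed at 0 in every library. The scaled ranges of the Botox and PBS libraries overlapped for each of these lists. On the deposited scale the fibroblast sum was 5.19 to 8.01 TPM after PBS and 2.99 to 3.90 TPM after Botox. The neutrophil sum was likewise lower in every Botox library than in every PBS library on that scale. Of all tested genes, 22.4% had every Botox value below every PBS value on that scale, and 93.8% had a negative log2 fold change. The ranges of the other lists overlapped there.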

How the data were processed

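RNA was ribodepleted and sequenced as stranded paired-end libraries, per the labels' protocols. The submitters' processing notes name mm39, Bowtie2 2.2.5, SAMtools and DESeq2, with no roles. No source used here names the counter or its strand setting. The authors deposited TPM for 57126 rows with 0.001 added to each value, which was taken off. The deposited length, in another unit (bases), equals stop minus start in all rows. The authors' deposited gene set table holds p-values and q-values, a ratio and a signed fold change; only ratios, set sizes and false discovery rates were used.

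Depth was estimated from the step of low values. Under 20 reads, 89.3% to 90.7% of values lay within 0.1 of a whole number, where 20% would by chance, so no count model was run and no counting interval is given. Genes reaching 1 TPM in 3 or more libraries were tested with limma 3.58.1 in R 4.3.3 (log2 of TPM + 1, intensity trend, two-sided, Benjamini-Hochberg over 11253 genes, threshold 0.05); fold changes on this scale understate those of low genes. The script was tested on simulated data. Summaries used Python 3.11.15 with pandas 2.3.3. Alternatives were size factors, quantile normalization, protein-coding genes only, a pseudocount of 0.1, other filters, no trend, each library left out, Botox 2 and Botox 4 left out, and a replicate block.

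All 36 genes are named, with the 6 other lipid genes of smallest p, of which 1 is not reported here, and the 2 highest markers of each list. Members and lists were chosen with earlier results of these data known. Replicate numbers were not used as pairs in the main test, since each library is labelled with a mouse of its own. Whether same-numbered libraries shared a day of sorting or a batch is not known here.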

Additional observations from a re-analysis of the deposited data

Results flagged for a closer look

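With 4 Botox libraries, a value far from the other 3 was looked for in each of the 36 genes on the deposited scale. Chance marks about 1 in 20 such groups, or 1.8 of 36, and 2 were marked. Ebp was at 0.773 TPM in Botox 4, below the other Botox libraries at 3.08 to 3.13 TPM. Abca1 was at 2.11 TPM in Botox 2, above the other Botox libraries at 0.401 to 0.559 TPM. Both marks are for the deposited scale only, on which Botox 4 had a size factor of 0.446. The search was not run on scaled TPM. There Ebp was at 1.73 in Botox 4 against 2.76 to 3.46 in Botox 1 to 3. Scaled Abca1 was at 2.37 in Botox 2, 1.25 in Botox 4, and 0.382 and 0.493 in Botox 1 and Botox 3.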

How the results depend on the processing

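No member passed the adjusted threshold under any of the 17 alternatives. The number of genes past it among all tested genes was 0 with all libraries on the deposited scale, 1 with size factors, 1 with quantile normalization, 22 without a filter, 1 with at least 1 TPM required in every library and 0 to 76 with 1 library left out (76 without Botox 1). The member median minus the median of all genes was -0.14, with -0.41 without a filter and -0.17 to -0.0387 with 1 library left out (-0.0387 without Botox 2). Without a filter the member median was -0.54 and that of all 29646 genes -0.13, against -0.60 and -0.46 with the filter. Members with every Botox library below every PBS library numbered 15 (48.4%, against 22.4% of all tested genes), with 5 (16.1% against 3.77%) under size factors, 4 (12.9% against 3.79%) under quantile normalization, 6 (16.7% against 4.83%) over protein-coding genes, 6 (50% against 23.3%) with 1 TPM in every library (where 12 members are tested) and 15 to 24 with 1 library left out (24 without Botox 3, 77.4% against 43.3%). Elovl6 was not among the 4 under quantile normalization. Idi1 was not among the 6 over protein-coding genes, which included Ebp and Fads1. The log2 fold change turned positive with size factors for Fasn (0.15), Insig2 (0.12), Mvd (0.0063), Nr1h2 (0.15), Pmvk (0.0998), Scap (0.23) and Srebf2 (0.00573). With quantile normalization it did so for Acsl3 (0.0347), Fasn (0.079), Fdft1 (0.0282), Fdps (0.082), Insig2 (0.13), Mvd (0.17), Nr1h2 (0.0405), Pmvk (0.28), Scap (0.29), Srebf1 (0.0338) and Srebf2 (0.0125). Over protein-coding genes it did so for Scap (0.0461). Without Botox 2 and Botox 4 it did so for Fasn (0.0474), Fdps (0.0161), Nr1h2 (0.11), Pmvk (0.0463), Scap (0.0309) and Srebf1 (0.00275). With size factors added it did so for Fasn (0.26), Fdps (0.16), Insig2 (0.0727), Nr1h2 (0.31), Pmvk (0.17), Scap (0.17), Sqle (0.0491), Srebf1 (0.16) and Srebf2 (0.0751). The cause of these changes was not tested. With the replicate number as a block over libraries 1 to 3, 0 genes and 0 members passed, 16 members (51.6%, against 23% of genes) did not overlap downward, and the member median differed by -0.17. Same-numbered libraries correlated at 0.03, -0.05 and -0.13 in their deviations from the group means over 11253 genes. Libraries of different numbers correlated at -0.12 to 0.15. Depth limits the precision of genes with few reads, such as Mvk with 17 to 44.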
